A study of Homo sapiens with 14 samples.

Results

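Run-on transcription of 7 sterol genes was followed across PRO-seq libraries of A549 cells, a line derived from a human lung adenocarcinoma. The genes were taken from the count table by name, from a list of cholesterol genes controlled by the transcription factor SREBP2, and all 7 were found among the 58780 genes of the table. They are SREBF2, which encodes SREBP2 itself, INSIG1, which encodes a sterol-dependent anchor of the SREBP pathway in the endoplasmic reticulum, and the enzyme genes HMGCS1, IDI1, FDFT1, SQLE and LSS. None of the 7 encodes an uptake receptor, so they are called sterol genes here. Every one was detected in every library, with 77 to 678 counts per gene and library, and all 7 passed the filter on low counts.

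As background, cells make cholesterol from acetyl-CoA through mevalonate, isoprenoids, squalene and lanosterol. When sterol is low in the endoplasmic reticulum, SREBP2 is carried to the Golgi by its escort protein, cut by proteases and released to the nucleus, where it binds sterol regulatory elements beside factors such as NF-Y, which recognises CCAAT boxes. When sterol is high, INSIG proteins hold the SREBP2 complex back, so INSIG1 is both a target of the pathway and a brake on it.

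PRO-seq measures transcription by letting polymerases that are already engaged on DNA add labelled nucleotides in permeabilized cells and sequencing the labelled RNA. The 14 libraries form 7 groups of 2, all A549 cells in 0.01% DMSO. Untreated cells carry a 15 min label, and further groups received GSK591 at 1 µM for 15 min, MS023 at 1 µM for 15 min, GSK591 or MS023 with dexamethasone (Dex) at 100 nM for 15 min, and GSK591 or MS023 at 1 µM for 3 h. GSK591 blocks PRMT5, which places most symmetric dimethyl marks on arginine, MS023 inhibits type I arginine methyltransferases, and Dex is a synthetic glucocorticoid. Untreated cells held for 3 h and cells given Dex with no inhibitor are not analysed here, so inhibitor and time cannot be told apart at 3 h, and each Dex effect is one in the presence of an inhibitor. The labels do not say that the 2 libraries of a group came from separate cultures, so p-values measure only the spread between these libraries, which may be technical.

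Total counts ranged from 5768312 to 9606938 per library. Mitochondrial genes took 39.8% of the counts in MS023 15 min replicate 2 and 58.0% in GSK591 with Dex replicate 2, the lowest and the highest library, and the same libraries had the highest and the lowest TMM scaling factor (1.16 and 0.810). The part of this difference in the results below was not tested, and the values without each library are given where they end a call. Markers of A549 cells were present in untreated cells, with KRT8 at 308 CPM (counts scaled to a fixed library total, on TMM-scaled library sizes) and AKR1B10 at 258 CPM, while EPCAM was at 2.82 CPM. Of 8 markers of immune, endothelial, stromal and liver cells, CD3E had no count in any library and none exceeded 2.51 CPM.

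The promoter sequences are shown because SREBP2 and NF-Y are known to act there. The set of RefSeq promoters used here (GRCh38.p14) held 5 of the 7 genes. SQLE and FDFT1 are missing from that set, which does not mean that RefSeq lacks them. Each sequence below runs 5′ to 3′ on the strand of its gene and ends before the first annotated exon in GENCODE release 29. Capitals mark the CCAAT box, which reads ATTGG on this strand in the printed stretches, and in SREBF2 also the sterol regulatory element.
HMGCS1, chr5:43313513-43313662, minus strand: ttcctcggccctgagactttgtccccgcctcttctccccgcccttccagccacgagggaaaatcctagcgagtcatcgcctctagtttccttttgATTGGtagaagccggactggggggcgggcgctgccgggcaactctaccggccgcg
INSIG1, chr7:155297628-155297775, plus strand: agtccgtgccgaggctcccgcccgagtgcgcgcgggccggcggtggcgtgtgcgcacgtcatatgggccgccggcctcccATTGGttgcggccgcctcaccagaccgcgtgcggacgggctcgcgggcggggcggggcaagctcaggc
IDI1, chr10:1049171-1049369, minus strand: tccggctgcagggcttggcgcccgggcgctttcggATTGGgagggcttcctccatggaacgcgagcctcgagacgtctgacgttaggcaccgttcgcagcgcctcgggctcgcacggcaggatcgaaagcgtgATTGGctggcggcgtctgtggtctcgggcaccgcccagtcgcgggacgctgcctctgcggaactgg
SREBF2, chr22:41832855-41833078, plus strand: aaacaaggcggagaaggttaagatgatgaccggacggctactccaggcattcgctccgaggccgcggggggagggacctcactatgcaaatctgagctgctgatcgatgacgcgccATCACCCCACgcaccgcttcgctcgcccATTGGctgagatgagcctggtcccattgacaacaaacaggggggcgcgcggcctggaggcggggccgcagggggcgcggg
LSS, chr21:46228825-46229024, minus strand: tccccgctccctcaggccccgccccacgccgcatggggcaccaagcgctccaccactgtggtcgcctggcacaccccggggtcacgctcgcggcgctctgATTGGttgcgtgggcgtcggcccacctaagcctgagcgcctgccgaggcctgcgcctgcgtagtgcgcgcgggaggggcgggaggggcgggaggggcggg

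All 5 promoters held a CCAAT box on either strand, against 39.7% of the 27305 genes in the promoter set used here. The 35116 windows of that set span 250 bases before to 50 after a start, and 34.6% of them held a CCAAT box. Counted by window, 6 of the 8 windows of these 5 genes held one, and 1 further window each of HMGCS1 and IDI1 did not. The boxes lay 87 to 215 bases before a RefSeq start. A sterol regulatory element, searched as TCACNCCAC on both strands, was found only in SREBF2 among the 5, and 1.13% of all windows hold it. The SREBF2 match is the stricter form, TCACCCCAC preceded by A, which 16 of all windows hold (0.0456%). Its TCACCCCAC begins 133 bases before the RefSeq start, and the CCAAT box of that promoter follows at 106 bases before that start. These matches describe letters and not binding, and no match in the other 4 says only that these letters are absent from the window. Of 15 other sterol synthesis genes, 14 were in the promoter set used here and 11 of them held a CCAAT box, and none held TCACNCCAC.

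In untreated cells the order of the sterol genes, per kilobase of GENCODE exon, ran from IDI1 to LSS. IDI1, the isomerase that makes the first allylic isoprenoid, stood at 12.1 ± 0.13 CPM per kb, and FDFT1, squalene synthase, at 10.5 ± 0.088 (SD, n = 2 for each gene). INSIG1 followed at 7.16 ± 1.00 and HMGCS1, a synthase of the mevalonate route, at 5.91 ± 0.63. SQLE, the squalene epoxidase, stood at 3.55 ± 0.13, SREBF2 at 3.34 ± 0.36 and LSS, the lanosterol synthase, at 2.80 ± 0.53. The libraries of SQLE and SREBF2 overlapped, as did those of SREBF2 and LSS, and the other neighbours in this order did not overlap. The feature that was counted is not given in the sources used here, so these levels assume counting within exons.

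On GRCh38 (GENCODE release 29), SQLE lies at chr8:124998497-125022283 and INSIG1 at chr7:155297776-155310235, both on the plus strand, and neither shares exon sequence with another gene. IDI1 (chr10:1039152-1049170, minus strand) shares 643 of its 4345 exon bases with IDI2-AS1 on the other strand, and HMGCS1 (chr5:43289395-43313512, minus strand) shares 703 of 4702 with AC114947.2. FDFT1 (chr8:11795573-11839309, plus strand) shares 217 of 5202 exon bases with AC069185.1. SREBF2 (chr22:41833079-41907308, plus strand) shares 280 of 7557 with SREBF2-AS1, and LSS (chr21:46188141-46228824, minus strand) shares 570 of 7238 with AP001468.1 and AP001469.1. The strand setting of the counting is not given in the sources used here, so reads in the shared stretches cannot be assigned to one gene.

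After 3 h of either inhibitor, transcription of INSIG1 and IDI1 was higher than in untreated cells, and SQLE was higher after GSK591. Changes were 1.29-fold to 1.47-fold. With GSK591, 3 of the 7 sterol genes rose and none fell (edgeR's quasi-likelihood test, Benjamini-Hochberg adjusted p under 0.05 over 21910 genes, 13 comparisons each adjusted on its own). The background was 11.0% of all genes called, 7.25% of them upward. With MS023, 2 of 7 rose and none fell, against 7.63% of all genes called and 5.40% called higher. The genes were chosen with earlier results of these data known, so the background here and below is a description and not a test of the list.

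INSIG1 read 28.7 and 23.5 CPM in the untreated libraries, 34.8 and 40.3 CPM after 3 h of GSK591, and 39.0 and 35.5 CPM after 3 h of MS023. Every 3 h library was above both untreated ones. The log2 fold change was 0.52 ± 0.13 (SE) with GSK591 (edgeR adjusted p = 0.00371) and 0.51 ± 0.13 with MS023 (edgeR adjusted p = 0.00597). Without untreated replicate 2, the lower of the pair, both were 0.39 with adjusted p of 0.161 and 0.205 in edgeR. The GSK591 call was also lost without GSK591 3 h replicate 2 (0.40, edgeR adjusted p = 0.130), and the MS023 call without MS023 3 h replicate 1 (0.44, edgeR adjusted p = 0.127).

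IDI1 read 52.3 and 53.1 CPM in untreated cells, 71.5 and 75.2 CPM after GSK591, and 70.7 and 65.5 CPM after MS023. The untreated pair was tight and lay below all 3 h libraries. The log2 fold change was 0.48 ± 0.10 with GSK591 (edgeR adjusted p = 7.99e-04), a call that held under every alternative run, with adjusted p of at most 0.0308. It was 0.37 ± 0.10 with MS023 (edgeR adjusted p = 0.0139). That call was lost without either untreated replicate (0.37 and 0.40, edgeR adjusted p = 0.119 and 0.0962), without MS023 3 h replicate 1 (0.32, edgeR adjusted p = 0.187) and with scaling by library size alone (0.39, edgeR adjusted p = 0.117).

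SQLE, which carries out the first oxygenation of the sterol branch, read 15.7 and 14.9 CPM in untreated cells, 23.5 and 21.4 CPM after 3 h of GSK591, and 18.6 and 20.2 CPM after 3 h of MS023. Neither treated pair overlapped the untreated pair. The log2 fold change with GSK591 was 0.56 ± 0.14 (edgeR adjusted p = 0.00562) and with MS023 0.34 ± 0.14, which did not pass (edgeR adjusted p = 0.158). Without untreated replicate 2 or GSK591 3 h replicate 1 the GSK591 value was 0.52 or 0.49 and no longer passed (edgeR adjusted p = 0.0842 and 0.0964).

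The other 4 sterol genes passed in neither 3 h comparison. FDFT1 read 54.3 and 55.0 CPM in untreated cells, 57.2 and 66.6 CPM after GSK591 and 71.1 and 60.8 CPM after MS023, with log2 fold changes of 0.18 ± 0.11 and 0.28 ± 0.11 (edgeR adjusted p = 0.352 and 0.139). All of these treated libraries were above the untreated ones, but by less than the test required. HMGCS1 read 25.7 and 29.9 CPM in untreated cells, 29.1 and 27.4 CPM after GSK591 and 34.1 and 35.3 CPM after MS023, and its MS023 value of 0.32 ± 0.11 came nearest to passing (edgeR adjusted p = 0.0812). With GSK591 its log2 fold change was 0.03, with a 95% interval of -0.21 to 0.26. SREBF2, which encodes the factor the others depend on, read 27.2 and 23.32 CPM in untreated cells, 23.4 and 24.1 CPM after GSK591 and 26.2 and 25.8 CPM after MS023. Its groups overlapped, and the 95% intervals ran from -0.35 to 0.16 with GSK591 and from -0.22 to 0.30 with MS023. LSS read 17.5 and 23.0 CPM in untreated cells, so its own untreated spread covered GSK591 replicate 2, and the log2 fold changes were 0.17 ± 0.13 and 0.24 ± 0.14.

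The plot of CPM by library gives all 14 values of each gene.

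**Figure D1:**
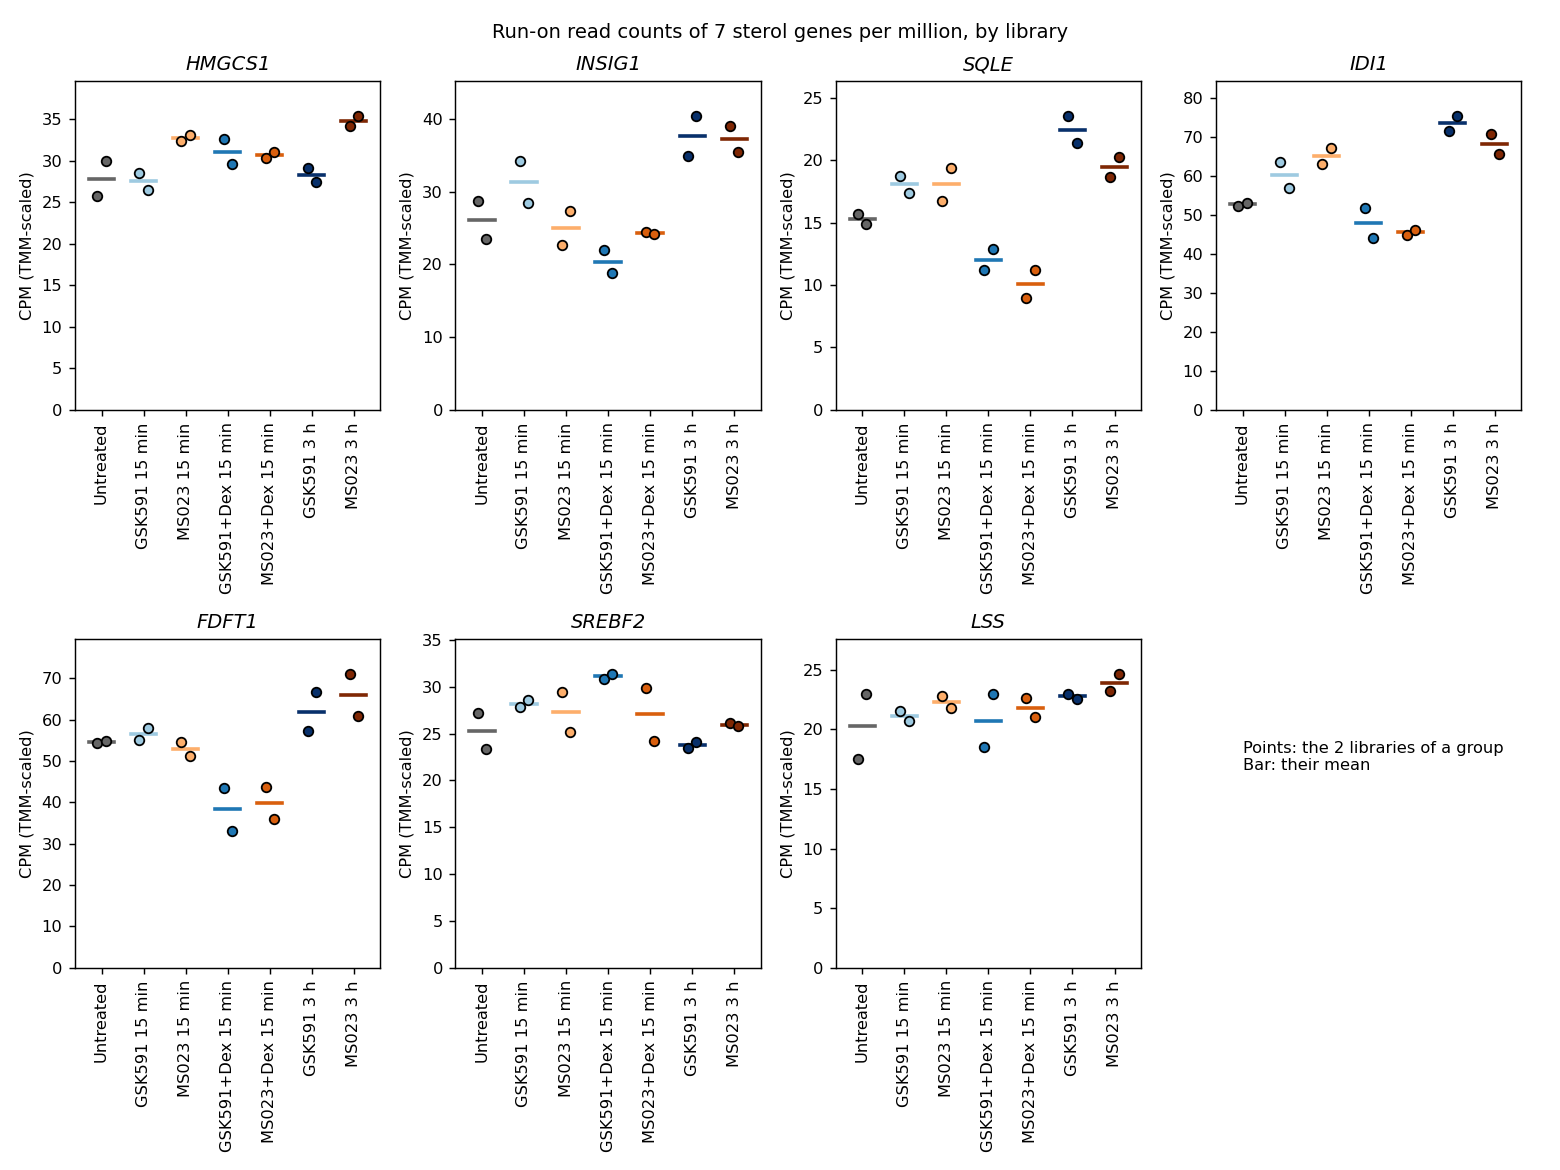
CPM on TMM-scaled library sizes (vertical axes from 0) for each of the 7 sterol genes, by group of 2 libraries (horizontal axes). Points are libraries and bars are group means. The means of INSIG1, IDI1, SQLE, FDFT1 and LSS are highest in the 3 h groups, with overlap of single libraries at 15 min for IDI1, SQLE and FDFT1, and with untreated, 15 min and Dex libraries for LSS. The means of SQLE, IDI1 and FDFT1 are lowest in both groups given Dex.

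At 15 min neither inhibitor alone changed a sterol gene past the threshold. Few genes were called at all, 0.306% of those tested for GSK591 and 0.183% for MS023. An unadjusted p under 0.05 in edgeR was reached by 1501 and 1770 of the 21910 genes. INSIG1 read 34.1 and 28.5 CPM with GSK591 and 22.6 and 27.3 CPM with MS023, and both pairs overlapped the untreated libraries. IDI1 read 63.6 and 56.9 CPM with GSK591 and 63.0 and 67.1 CPM with MS023. All 4 of these libraries were above the untreated pair, with log2 fold changes of 0.19 ± 0.10 and 0.30 ± 0.10 (edgeR adjusted p = 0.781 and 0.341). SQLE stood likewise above the untreated pair, at 18.7 and 17.4 CPM with GSK591 and 16.8 and 19.4 CPM with MS023, with log2 fold changes of 0.24 ± 0.14 and 0.23 ± 0.15 (edgeR adjusted p = 0.854 and 0.737). Over the 7 genes the largest log2 fold change at 15 min was that of IDI1 with MS023, and the smallest adjusted p was also its own.

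Between 15 min and 3 h of the same inhibitor, 1 of the 14 gene and inhibitor pairs passed. INSIG1 rose with MS023, from 22.6 and 27.3 CPM at 15 min to 39.0 and 35.5 CPM at 3 h, a log2 fold change of 0.59 ± 0.13 (edgeR adjusted p = 0.00135), in a comparison that called 12.0% of all genes. It did not pass with scaling by library size alone (0.44, edgeR adjusted p = 0.0786) or without MS023 15 min replicate 1 (0.45, edgeR adjusted p = 0.107). With GSK591, 6.41% of all genes were called and none of the 7. INSIG1, SQLE and IDI1 read 0.26 ± 0.12, 0.32 ± 0.14 and 0.28 ± 0.10 higher at 3 h on the log2 scale (edgeR adjusted p = 0.234, 0.184 and 0.0766). LSS read 0.11 higher and SREBF2 0.25 lower, a log2 fold change of -0.25 (edgeR adjusted p = 0.727 and 0.270). The libraries of these genes did not overlap between the times, and the share of all genes that part in this way was not tested. FDFT1 read 0.32 ± 0.11 higher at 3 h than at 15 min of MS023 (edgeR adjusted p = 0.0631). It passed with nuclear library size as the scale (0.43, edgeR adjusted p = 0.00689), where the median of all genes was 0.099, against -0.014 in the main fit. It also passed with only the groups compared in the fit (0.33, edgeR adjusted p = 0.0479), and read 0.44 without MS023 3 h replicate 2.

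The inhibitors were not distinguished at any of the 7 genes. GSK591 against MS023 called 1.09% of all genes at 15 min and 0% at 3 h, where 1319 of 21910 genes had an unadjusted p under 0.05 in edgeR and DESeq2 called 1 gene. The widest gaps between the inhibitors at a sterol gene were INSIG1 at 15 min, with GSK591 higher by 0.34 (95% interval 0.07 to 0.61, edgeR adjusted p = 0.321), and HMGCS1 at 3 h, with GSK591 lower (log2 fold change -0.29, 95% interval -0.53 to -0.06, edgeR adjusted p = 0.708). These intervals leave room for sizeable differences, so the compounds are not shown to act alike on these genes.

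Adding Dex for 15 min lowered transcription of SQLE and FDFT1 beside either inhibitor, of INSIG1 beside GSK591 and of IDI1 beside MS023. The falls that passed ranged from 1.33-fold (FDFT1 beside MS023) to 1.77-fold (SQLE beside MS023). Beside GSK591, 3 of the 7 genes fell and none rose, against 3.70% of all genes called and 2.27% called lower. Beside MS023, 3 of 7 fell and none rose, against 8.97% called and 3.07% called lower.

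SQLE read 18.7 and 17.4 CPM with GSK591 alone and 11.2 and 12.9 CPM with GSK591 and Dex. With MS023 it read 16.8 and 19.4 CPM alone and 9.00 and 11.2 CPM with Dex. The 4 Dex libraries were the lowest of all 14 for this gene. The log2 fold change was -0.83 ± 0.16 beside MS023 (edgeR adjusted p = 3.03e-04), which held under every alternative run with adjusted p of at most 0.0265. Beside GSK591 it was -0.59 ± 0.16 (edgeR adjusted p = 0.0244), but this call was lost with DESeq2 (-0.59, adjusted p = 0.119), with only the groups compared in the fit (-0.58, edgeR adjusted p = 0.0926) and without any 1 of the 4 libraries (edgeR adjusted p from 0.0678 to 0.199).

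FDFT1, which joins farnesyl units into squalene and so commits the pathway to sterols, read 55.2 and 57.9 CPM with GSK591 and 43.6 and 33.1 CPM with GSK591 and Dex. Beside MS023 it read 54.7 and 51.3 CPM alone and 43.7 and 36.0 CPM with Dex. Dex libraries were below the others in both cases, with a wider spread between them. The log2 fold change was -0.56 ± 0.12 beside GSK591 (edgeR adjusted p = 0.00382) and -0.42 ± 0.12 beside MS023 (edgeR adjusted p = 0.0197). The first was lost without GSK591 15 min replicate 2 (-0.53, edgeR adjusted p = 0.0587) or GSK591 with Dex replicate 2 (-0.36, edgeR adjusted p = 0.220), the library with the largest mitochondrial share. The second was lost with nuclear library size as the scale (-0.35, edgeR adjusted p = 0.0524), with DESeq2 (-0.41, adjusted p = 0.0807), without MS023 15 min replicate 1 (-0.37, edgeR adjusted p = 0.243) and without MS023 with Dex replicate 2 (-0.27, edgeR adjusted p = 0.373).

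IDI1 read 63.0 and 67.1 CPM with MS023 and 44.9 and 46.1 CPM with MS023 and Dex. This gap was wide against the spread of either pair, and the log2 fold change of -0.51 ± 0.10 (edgeR adjusted p = 5.97e-04) passed under every alternative run, with adjusted p of at most 0.0194. Beside GSK591 it read 63.6 and 56.9 CPM alone and 51.6 and 43.9 CPM with Dex, again without overlap, and the log2 fold change of -0.33 ± 0.11 did not pass (edgeR adjusted p = 0.0690). It passed with scaling by library size alone (-0.53, edgeR adjusted p = 0.0210) and with nuclear library size (-0.38, edgeR adjusted p = 0.0309). The medians of all genes on those scales were -0.21 and -0.048, against -0.0043 in the main fit. Without GSK591 with Dex replicate 1 the IDI1 value was -0.46.

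INSIG1 read 34.1 and 28.5 CPM with GSK591 and 21.9 and 18.8 CPM with GSK591 and Dex, a log2 fold change of -0.62 ± 0.14 (edgeR adjusted p = 0.00550). With MS023 it read 22.6 and 27.3 CPM alone and 24.4 and 24.2 CPM with Dex, and here the pairs overlapped at a log2 fold change of -0.03 ± 0.14. The difference between these Dex effects was -0.59 ± 0.20 (95% interval -0.99 to -0.20) and did not pass (edgeR adjusted p = 0.154), so INSIG1 is not shown to respond differently beside the inhibitors. It passed only with nuclear library size as the scale (-0.70, edgeR adjusted p = 0.0472), where the median of all genes was -0.12, against -0.0082 in the main fit. The fall beside GSK591 was itself lost without GSK591 15 min replicate 1 (-0.48, edgeR adjusted p = 0.178) or GSK591 with Dex replicate 2 (-0.50, edgeR adjusted p = 0.138). No other sterol gene passed for this difference, which called 1.15% of all genes, and the 95% intervals for SQLE, IDI1 and FDFT1 were -0.22 to 0.69, -0.12 to 0.48 and -0.49 to 0.20.

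HMGCS1, SREBF2 and LSS did not pass with Dex beside either inhibitor. HMGCS1 read 32.5 and 29.5 CPM with GSK591 and Dex and 30.3 and 31.1 CPM with MS023 and Dex, for log2 fold changes of 0.18 ± 0.12 and -0.09 ± 0.12. SREBF2 read 30.8 and 31.4 CPM with GSK591 and Dex, its highest group, and 29.9 and 24.2 CPM with MS023 and Dex, with log2 fold changes of 0.14 ± 0.13 and -0.02 ± 0.13. LSS, at 18.5 and 23.0 CPM and at 22.7 and 21.0 CPM in the same groups, gave -0.03 ± 0.14 and -0.03 ± 0.14. SREBF2 passed in none of the 13 comparisons, and neither did HMGCS1 or LSS.

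**Figure D2:**
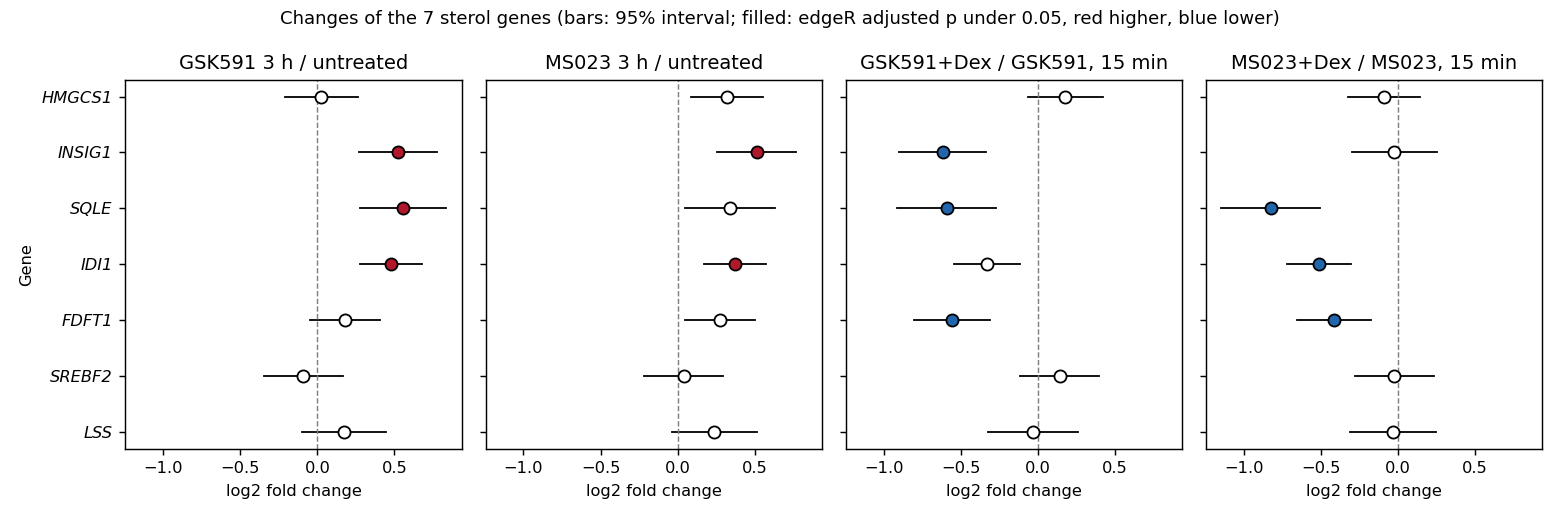
Log2 fold changes (horizontal axes) of the 7 sterol genes (vertical axis) in 4 comparisons, with 95% intervals as bars. Filled points passed the edgeR threshold, in red where higher and in blue where lower. INSIG1, SQLE and IDI1 are red for 3 h of GSK591, and SQLE and FDFT1 are blue for Dex beside either inhibitor.

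The groups given an inhibitor with Dex were also set against untreated cells, with the same Dex libraries as above. FDFT1 was lower in both cases and SQLE with MS023. GSK591 with Dex called 5.85% of all genes and 1 of the 7, FDFT1, at a log2 fold change of -0.51 ± 0.12 (edgeR adjusted p = 0.00642). MS023 with Dex called 7.66% of all genes and 2 of the 7, SQLE at -0.60 ± 0.16 and FDFT1 at -0.46 ± 0.12 (edgeR adjusted p = 0.0119 and 0.00914). All of these Dex libraries lay below both untreated ones. Each of these calls was lost when untreated replicate 1 or untreated replicate 2 was left out, with edgeR adjusted p from 0.0537 to 0.135. FDFT1 was also lost without replicate 2 of its Dex group (-0.32, edgeR adjusted p = 0.234 with GSK591, and -0.32, edgeR adjusted p = 0.266 with MS023) and, for MS023, with scaling by library size alone (-0.46, edgeR adjusted p = 0.0819). SQLE was lost with DESeq2 (-0.60, adjusted p = 0.0676) and without MS023 with Dex replicate 1 (-0.45, edgeR adjusted p = 0.220). With nuclear library size as the scale, INSIG1 and SQLE passed for GSK591 with Dex (-0.51 and -0.51, edgeR adjusted p = 0.0165 and 0.0474). The untreated libraries enter both of these comparisons and both 3 h comparisons, so those are not independent of each other.

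Of 15 further sterol synthesis genes, all were tested and few passed. MVD, the decarboxylase that makes isopentenyl diphosphate, rose at 3 h with GSK591 and MS023 (log2 fold changes 0.50 ± 0.12 and 0.60 ± 0.12, edgeR adjusted p = 0.00238 and 4.02e-04) and fell with Dex beside GSK591 and MS023 (-0.56 ± 0.13 and -0.49 ± 0.13, edgeR adjusted p = 0.00575 and 0.00786). It read 26.0 and 26.4 CPM in untreated cells, 35.3 to 43.1 CPM in the 4 libraries at 3 h and 20.1 to 23.11 CPM in the 4 with Dex. Those ranges did not overlap. Leaving out GSK591 3 h replicate 2 or MS023 3 h replicate 1 ended the 3 h call concerned (edgeR adjusted p = 0.0788 and 0.0656). The Dex calls of MVD were lost without GSK591 15 min replicate 1 or 2 or GSK591 with Dex replicate 1, and without MS023 15 min replicate 1 or either MS023 with Dex library (highest edgeR adjusted p 0.0762 beside GSK591 and 0.133 beside MS023). MVD was the only one of the 15 to pass at 3 h against untreated cells. Of all genes, 11.0% and 7.63% were called there with GSK591 and MS023, 7.25% and 5.40% upward. The list's median log2 fold change was 0.10 with GSK591 and 0.08 with MS023, beside -0.0084 and -0.011 for all genes.

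With Dex, 2 of the 15 fell beside GSK591 and 5 beside MS023, and none rose, where 2.27% and 3.07% of all genes were called lower. Beside GSK591 these were MVD and TM7SF2, a sterol C14 reductase, at -0.41 ± 0.10 (edgeR adjusted p = 0.00690). Beside MS023 they were MVD, FDPS, which makes farnesyl diphosphate (-0.31 ± 0.10, edgeR adjusted p = 0.0460), and 3 late genes. The late genes were MSMO1, the C4 methyl oxidase (-0.84 ± 0.25, edgeR adjusted p = 0.0245), HSD17B7, the 3-keto reductase (-1.08 ± 0.35, edgeR adjusted p = 0.0429), and DHCR7, which makes the last double-bond reduction in one branch (-0.50 ± 0.14, edgeR adjusted p = 0.0152). HSD17B7 rested on few reads, 10 to 50 counts per library. The list's median was -0.32 beside GSK591 and -0.27 beside MS023, against medians over all genes of -0.0043 and -0.016. Against untreated cells HSD17B7 was lower with GSK591 and Dex and with MS023 and Dex (-1.14 ± 0.34 and -1.33 ± 0.33, edgeR adjusted p = 0.0389 and 0.00707) and MSMO1 was lower with MS023 and Dex (-1.07 ± 0.24, edgeR adjusted p = 0.00216). IDI2, a second isomerase gene that shares most of its exon sequence with other genes, was lower at 3 h than at 15 min of MS023 (-0.99 ± 0.32, edgeR adjusted p = 0.0348), a comparison in which MVD was higher (0.46 ± 0.12, edgeR adjusted p = 0.00560).

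Among 7 genes of sterol sensing and SREBP processing, RNF139, which encodes a ubiquitin ligase of the endoplasmic reticulum, passed in the most comparisons, 4 of the 13. It read 18.7 and 17.5 CPM in untreated cells, 16.5 and 17.1 CPM with MS023 for 15 min and 27.57 and 27.98 CPM with MS023 and Dex. With GSK591 and Dex it read 27.6 and 29.4 CPM. The 4 Dex libraries were above every other library for this gene. RNF139 rose with Dex beside MS023 (0.73 ± 0.14, edgeR adjusted p = 4.13e-04) and was higher than untreated in both groups given Dex (0.65 ± 0.14 and 0.62 ± 0.14, edgeR adjusted p = 0.00243 and 0.00226). It was also higher at 3 h than at 15 min of MS023 (0.50 ± 0.15, edgeR adjusted p = 0.0169), while its value with Dex beside GSK591 did not pass (0.42 ± 0.14, edgeR adjusted p = 0.0808).

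The remaining sensing genes that passed did so in fewer comparisons. INSIG2, the homologue of INSIG1, was higher at 3 h with MS023 (1.03 ± 0.33, edgeR adjusted p = 0.0429) and higher than at 15 min of MS023 (1.44 ± 0.36, edgeR adjusted p = 0.00475), on only 9 to 35 counts per library. SCAP, the escort of SREBP2, was lower at 3 h than at 15 min of GSK591 (-0.41 ± 0.11, edgeR adjusted p = 0.0132). The list's median was -0.08 with GSK591 and -0.11 with MS023 at 3 h, and 0.08 and 0.28 with Dex beside GSK591 and MS023.

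Of 12 transport and storage genes, 2 passed at 3 h of GSK591, where 11.0% of all genes were called. The list's median log2 fold change was -0.19 there, with 1 of the 12 above 0, and -0.15 at 3 h of MS023, with 3 above 0, against -0.0084 and -0.011 for all genes. With Dex it was 0.09 beside GSK591 and 0.06 beside MS023. NPC1, which exports cholesterol from lysosomes, was lower at 3 h of GSK591 (-0.38 ± 0.10, edgeR adjusted p = 0.00888), and NR1H3, the sterol-activated receptor LXR alpha, was higher (0.42 ± 0.14, edgeR adjusted p = 0.0484). Against 15 min of the same inhibitor, NPC1 was lower at 3 h of GSK591 and of MS023 (-0.40 ± 0.10 and -0.32 ± 0.10, edgeR adjusted p = 0.0102 and 0.0274), and NR1H3 was higher at 3 h of GSK591 (0.49 ± 0.14, edgeR adjusted p = 0.0333). SCARB1, an uptake receptor for high-density lipoprotein, was higher with GSK591 and Dex than in untreated cells (0.38 ± 0.10, edgeR adjusted p = 0.0221) and lower at 3 h than at 15 min of GSK591 (-0.37 ± 0.10, edgeR adjusted p = 0.0261). None of the 12 passed at 3 h of MS023 against untreated cells or with Dex beside either inhibitor. Of all genes, 7.63% were called at 3 h of MS023, and 3.70% and 8.97% with Dex beside GSK591 and MS023. The uptake receptors VLDLR and LRP8 passed in no comparison. Of 8 fatty acid synthesis genes, FASN fell with Dex beside GSK591 (-0.36 ± 0.10, edgeR adjusted p = 0.0388), and SCD was higher at 3 h of MS023 than in untreated cells (0.32 ± 0.10, edgeR adjusted p = 0.0418). Between 15 min and 3 h of MS023, where 12.0% of all genes were called, SCD was higher at 3 h (0.33, edgeR adjusted p = 0.0304) and ACACA was lower (-0.40 ± 0.10, edgeR adjusted p = 0.00494). Of the 32 calls among all these pathway genes, 1 held under every alternative run, that of RNF139 with Dex beside MS023, the other 31 were lost under at least 1, and none changed sign.

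**Figure D3:**
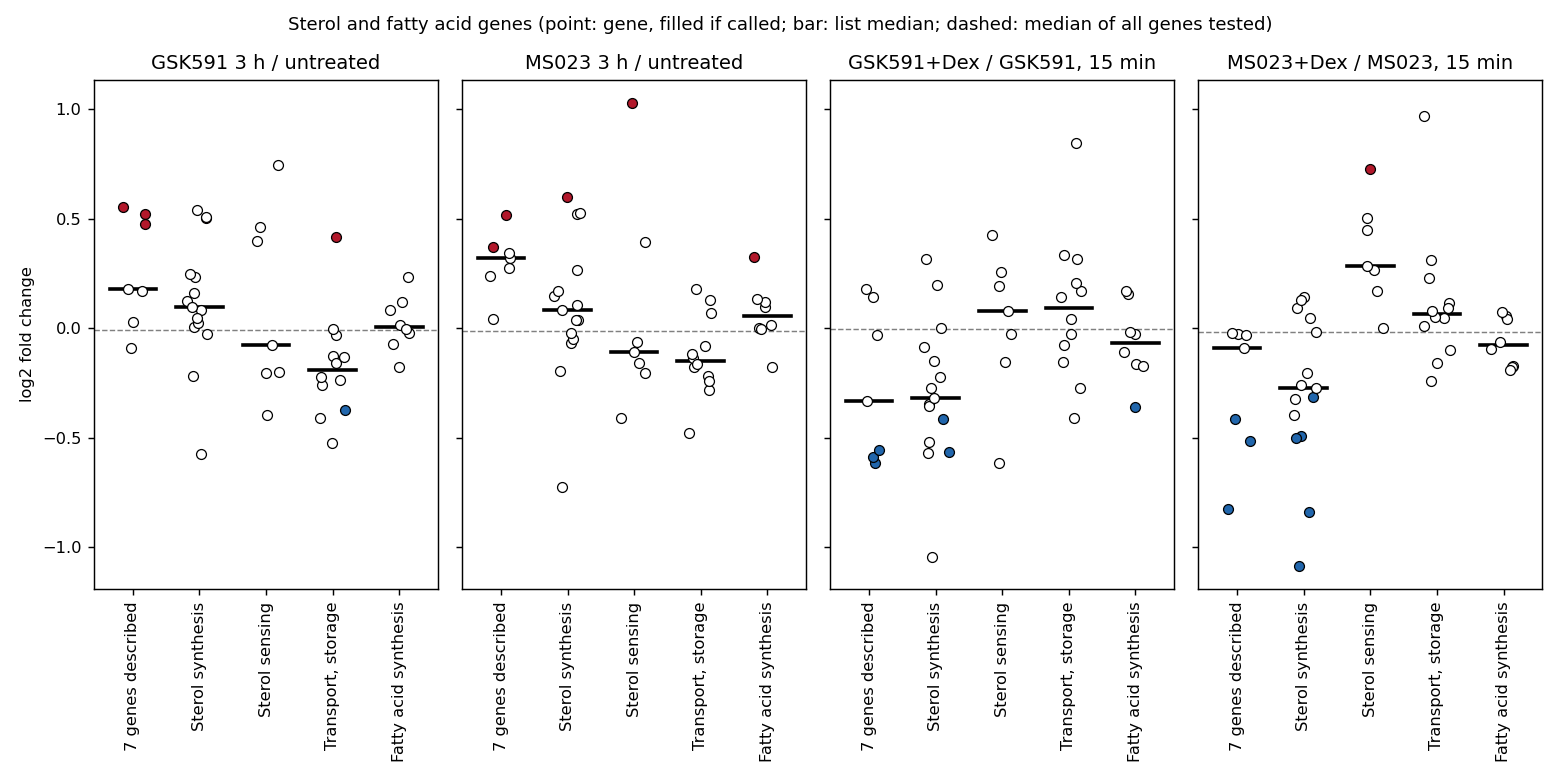
Log2 fold changes (vertical axes) of single genes in 5 gene lists (horizontal axes) for 4 comparisons. Points are genes, filled where the edgeR threshold was passed, bars are list medians and the dashed line is the median of all genes tested. The synthesis list has its median at -0.32 and -0.27 in the Dex panels, and at 0.10 and 0.08 in the 3 h panels.

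Several sterol genes share a start region with a gene on the opposite strand, and these pairs were read side by side, a choice made after the values were seen. The start of AC144652.1, a noncoding RNA, lies 235 bp from that of INSIG1. It read 31.9 and 32.5 CPM in untreated cells, 42.7 and 46.7 CPM after 3 h of GSK591 and 43.6 and 42.0 CPM after 3 h of MS023, and it rose in both (0.47 ± 0.12 and 0.41 ± 0.13, edgeR adjusted p = 0.00886 and 0.0354). These calls were lost in 4 and 7 of 10 alternatives, with adjusted p up to 0.140 and 0.215, nuclear library size and either untreated library left out among them in both cases, and library size alone and DESeq2 for MS023. With Dex beside GSK591, where INSIG1 fell, AC144652.1 gave -0.04 ± 0.13. WDR37, a protein-coding gene, starts 368 bp from IDI1 and rose at 3 h with GSK591 and MS023 (0.53 ± 0.14 and 0.65 ± 0.14, edgeR adjusted p = 0.00910 and 0.00144). The GSK591 call of WDR37 was lost in 4 of 10 alternatives (nuclear library size, DESeq2, and without untreated replicate 2 or GSK591 3 h replicate 2, adjusted p up to 0.120), and the MS023 call held in all 10. With Dex beside MS023, where IDI1 fell, WDR37 gave 0.32 ± 0.15 and did not pass (edgeR adjusted p = 0.202). WDR37 was also higher at 3 h than at 15 min of MS023 (0.58 ± 0.14, edgeR adjusted p = 0.00462), a call lost in 3 of 10 alternatives. IDI1 gave 0.07 in that comparison and did not pass (edgeR adjusted p = 0.731). The difference between the members of a pair was not tested.

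SQLE-DT, 299 bp from the start of SQLE, had few reads and passed in no comparison, with log2 fold changes of 0.55 ± 0.21 at 3 h of MS023 (edgeR adjusted p = 0.102) and -0.51 ± 0.23 with Dex beside MS023 (edgeR adjusted p = 0.182). MCM3AP-AS1, 393 bp from the start of LSS, passed in none either. SREBF2-AS1, whose start lies 1586 bp from that of SREBF2 and which overlaps it, was higher at 3 h of GSK591 (0.41 ± 0.12, edgeR adjusted p = 0.0274), while SREBF2 itself gave -0.09 ± 0.13. That call was lost in 7 of 10 alternatives (nuclear library size, no count filter, DESeq2 and each of the 4 libraries left out), with adjusted p up to 0.247.

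**Figure D4:**
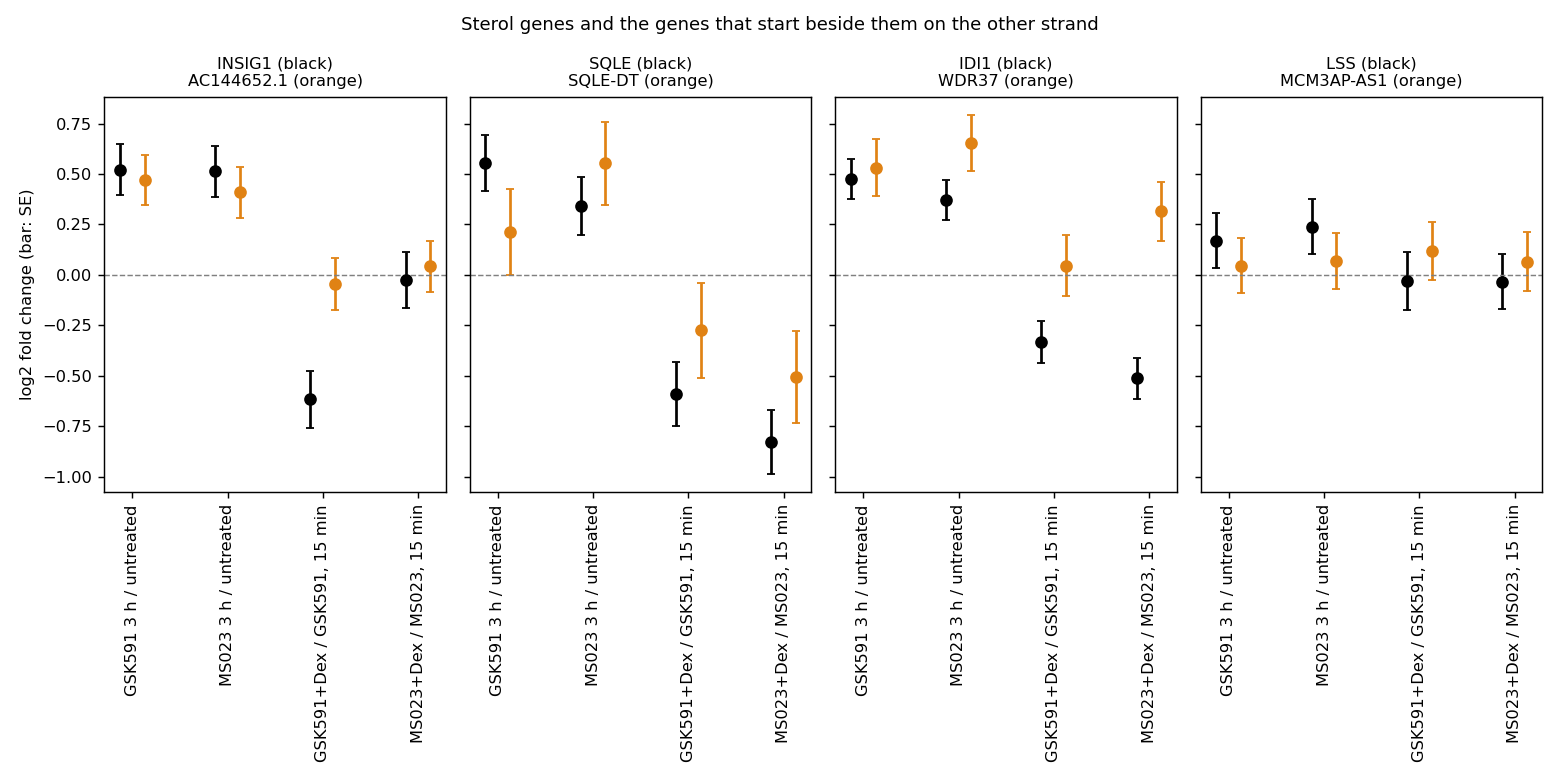
Log2 fold changes (vertical axis, bars are SE) of 4 sterol genes in black and of the gene that starts beside each on the other strand in orange, for 4 comparisons (horizontal axes). INSIG1 and AC144652.1, like IDI1 and WDR37, are both above 0 at 3 h, and with Dex beside GSK591 INSIG1 is at -0.62 and AC144652.1 at -0.04.

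Across the 14 libraries INSIG1, SQLE, IDI1 and FDFT1 varied alike, with Pearson's r between 0.74 and 0.91 on log2 CPM for every pair of them. HMGCS1 stood apart (r with those 4 from -0.04 to 0.16), LSS was weakly related to them (0.21 to 0.33), and SREBF2 ran opposite (-0.54 to -0.42). These are descriptions over libraries that share treatment groups and scaling. Over the 17471 other genes whose mean reached 2 CPM, those nearest to the mean standardized profile of the 7 were PLCD3 (r = 0.95), ANKRD53 (0.93), ISG20 (0.92), LAMTOR4 (0.92) and LOC105371795 (0.91), an antisense RNA. MVD, the enzyme gene described above, was the 6th (0.91). PLCD3, LAMTOR4 and LOC105371795 share exon sequence with other genes.

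In the authors' deposited table for 3 h of GSK591, INSIG1 had a log2 fold change of 0.68 with an adjusted p of 0.0377 from DESeq2, and was the only 1 of the 7 with an adjusted p under 0.05 in the 6 deposited comparisons with control. Over all genes, the authors' deposited tables gave such a value to 535 and 359 genes at 3 h of GSK591 and MS023, 154 and 238 with GSK591 and Dex and with MS023 and Dex, and 0 and 3 at 15 min of GSK591 and MS023. The authors' deposited table for 3 h of MS023 gave INSIG1 0.67 with an adjusted p of 0.0674 from DESeq2. For GSK591 with Dex and MS023 with Dex, the authors' deposited tables gave FDFT1 at -0.52 and -0.47 with adjusted p of 0.231 and 0.287 from DESeq2, in the direction found here but without a call.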

How the data were processed

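The authors deposited a table of whole-number read counts per gene for 14 PRO-seq libraries, and featureCounts 2.0.1, Subread, DESeq2 and hg38 are named in the submitters' processing notes. The aligner, the counted feature, the strand setting and duplicate handling are not given in the sources used here. The authors also deposited 6 DESeq2 tables with a log2 fold change, a mean signal per gene (baseMean), a test score and p-values, per the file headers. Gene identifiers matched GENCODE release 29, which named the 22731 genes the table leaves blank.

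Counts were tested with edgeR 4.0.16 (R 4.3.3): TMM scaling, edgeR's expression filter by group (21910 genes left), 1 fit of all 14 libraries with 1 coefficient per group (7 residual degrees of freedom, biological coefficient of variation 0.073) and the quasi-likelihood test. A gene was called in a comparison where its Benjamini-Hochberg adjusted p there was below 0.05. Standard errors are the log2 fold change divided by the square root of the F statistic, and 95% intervals follow from them. No spike-in was used here, so changes are relative to the bulk of genes. The functions were tested on simulated data. Alternatives were DESeq2 1.42.0, library size alone, nuclear library size (mitochondrial genes left out), no count filter, a replicate block, only the groups compared, and each library left out.

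The 7 genes and the lists of other pathway genes were chosen with earlier results of these data known, and some genes of those lists are not reported here. Every one of the 7 is described, pathway genes called in at least 1 comparison are named, and the 5 genes nearest to the mean profile of the 7 are named by correlation.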

Additional observations from a re-analysis of the deposited data

How the results depend on the processing

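Fold changes of the 7 sterol genes in the 13 comparisons were recomputed under other settings, giving 546 values (531 on the same side of the threshold, 8 calls lost, 7 gained), and with each of the 14 libraries left out, giving 392 values (361 the same, 29 lost, 2 gained). No called value changed sign. Of the others, 71 changed sign, none called in either fit and none over 0.18 in size. The calls of IDI1 at 3 h of GSK591, and of SQLE and IDI1 with Dex beside MS023, held under every alternative run.

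The larger changes in counts of genes called were as follows, and smaller ones are not listed. With library size alone they were 1472 for Dex beside GSK591, 69 for the difference of Dex effects, 712 for GSK591 at 3 h against 15 min, 29 for GSK591 against MS023 at 15 min, 1001 for MS023 at 3 h and 977 for MS023 with Dex. With nuclear library size they were 478 for the difference, 25 and 196 for GSK591 and MS023 at 15 min, 2044 for GSK591 with Dex and 1 for GSK591 against MS023 at 3 h. With no count filter they were 126 and 101 at 15 min and 47 for GSK591 against MS023 at 3 h. DESeq2 called 410 and 1020 genes for Dex beside GSK591 and MS023, 70 for the difference, 18 for GSK591 at 15 min, 1266 and 917 at 3 h, 584 and 1426 at 3 h against 15 min, 76 and 1 for GSK591 against MS023, and 627 and 832 with Dex against untreated. Fits of only the groups compared gave 385 for Dex beside GSK591, 135 for the difference, 187 and 176 at 15 min, 9 for GSK591 against MS023 at 3 h, and 801 and 2620 with Dex against untreated.

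Sterol genes called numbered 0, 1 and 1 with library size alone for MS023 at 3 h against 15 min, MS023 at 3 h and MS023 with Dex. With nuclear library size they numbered 1 for the difference, 3 for GSK591 with Dex and 2 for MS023 at 3 h against 15 min. DESeq2 gave 1 for MS023 with Dex, and the groups compared alone gave 2 for MS023 at 3 h against 15 min. These too are the larger changes. With Dex beside GSK591, IDI1 was gained on both library-size scales, and SQLE was lost with DESeq2 and with only the groups compared. With Dex beside MS023, FDFT1 was lost with nuclear library size and with DESeq2.

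Without 1 library, genes called ranged from 339 to 1007 and 641 to 1572 for Dex beside GSK591 and MS023, 8 to 490 for the difference, 4 to 97 and 2 to 22 at 15 min, 1092 to 1412 and 834 to 1240 at 3 h, 388 to 665 and 1160 to 1789 at 3 h against 15 min, 0 to 288 and 0 to 6 for GSK591 against MS023, and 420 to 1058 and 657 to 963 with Dex against untreated. Sterol genes called ranged from 0 to 3 and 2 to 3 for Dex beside GSK591 and MS023, 1 to 3 and 0 to 2 at 3 h, 0 to 2 for MS023 at 3 h against 15 min, and 0 to 1 each with Dex against untreated. The single library left in a group is then assumed to vary like the other groups, and the cause of these changes was not tested.

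With library size alone, all genes together had a median log2 fold change of -0.21 and -0.19 for Dex beside GSK591 and MS023. With nuclear library size these medians were -0.048 and 0.053. On the nuclear scale they were also -0.14 for GSK591 with Dex against untreated, -0.12 for the difference of Dex effects and 0.099 for MS023 at 3 h against 15 min. Fold changes on either scale include those shifts. The labels do not say whether shared replicate numbers pair the libraries. Deviations from group means correlated at -0.078 to 0.15 over 21 pairs of groups, and 2 exceeded 0.1. This does not show pairing, but cannot exclude a weak one, since such deviations include counting noise. A fit with the replicate block changed no call of a sterol gene and called 5 genes for GSK591 against MS023 at 3 h. The precision rests on 2 libraries a group and 77 to 678 counts per sterol gene and library, and how small a change could be detected was not tested.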
